A study of Tursiops truncatus with 76 samples.

Results

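Pregnant and non-pregnant female common bottlenose dolphins (Tursiops truncatus) of Barataria Bay, Louisiana (BAR) were compared by the RNA content of their whole blood. The 35 samples compared are all BAR female samples for which the sample table of the study gives pregnancy as yes or no, matched by field ID and collection date, out of 40 BAR female samples and 76 samples in the series. Of these, 20 samples were from pregnant dolphins (18 animals) and 15 from non-pregnant dolphins (15 animals). For the other 5 BAR females pregnancy could not be determined, and they were left out. The series was made from wild dolphins that were caught, sampled and released during health assessments, with Sarasota Bay (SAR) as the reference site, and asked what blood transcripts can tell about their health. Pregnancy status was one of the traits the study compared.

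All 35 samples are from females living at a site that was oiled by the Deepwater Horizon spill, and no treatment was given. Not all are known to have lived through the spill: in the study's sample table the non-pregnant YN5 was born after it, and the birth cohort of the non-pregnant YK9 and YR3 and the pregnant YX9 could not be determined. Birth cohort took no part in the comparison, and its part in the differences was not tested. The pregnant and non-pregnant samples numbered 3 and 5 in June 2013, 6 and 2 in June 2014, 1 and 3 in June 2017, 4 and 4 in September 2017, and 6 and 1 in July 2018. Status and collection are therefore partly mixed: June 2013 holds 5 of the 15 non-pregnant samples, and July 2018 holds 1. The samples come from 32 animals. Y99 and YA3 each gave a pregnant sample in 2014 and again in September 2017, and YV7 was non-pregnant in September 2017 and pregnant in July 2018. Status is also partly mixed with body length: in the study's sample table the shortest of these females were all non-pregnant. Body length entered only as a covariate in alternative fits. The study states that most of the pregnancies it sampled were in the first trimester. Stage of gestation, age and lactation were not analysed here.

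Pregnancy asks the maternal immune system to tolerate a fetus that carries paternal antigens while still guarding against infection, and progesterone from the corpus luteum and placenta is one of the signals that shape this state. In cattle and sheep the early embryo secretes interferon tau, and interferon-stimulated genes then rise in circulating leukocytes of the mother. Whether dolphins have such a signal was not examined here. In humans pregnancy also shifts the numbers of neutrophils, lymphocytes and platelets in blood. Whole blood RNA holds transcripts of all these cells together, so fewer cells of a type and less RNA per cell cannot be told apart.

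Expression was given as FPKM, a fragment number scaled to transcript length and to the mapped fragments of the library. FPKM do not hold read counts, but at loci with few reads the commonest ratio between a pair of libraries is that of equal read numbers. By that measure depth ranged from 0.579 to 1.27 of the median library in pregnant and from 0.603 to 1.37 in non-pregnant samples, a 2.37-fold span, with no difference between the groups beyond the spread (permutation p = 0.64). Between 14574 and 16586 loci were above 0 in a sample. The 10 most abundant loci took 14.5 to 24% of the summed FPKM in pregnant and 12.9 to 31% in non-pregnant samples (permutation p = 0.141). Blood cell markers were present in every sample, with lowest values of 3338 FPKM for ALAS2 (red cell heme synthesis), 2007 FPKM for PF4 (platelets), 44.6 FPKM for CD3G (T cells), 9.97 FPKM for MS4A1 (B cells), 37.9 FPKM for CSF1R (monocytes) and 17.3 FPKM for CXCR2 (neutrophils).

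Pregnant and non-pregnant samples were intermingled in principal component analysis of the 11634 loci that passed the filter on low values. The first component held 22.5% of the variance. Scores along it ran from -1.74 to 1.72 SD in pregnant and from -1.38 to 1.55 SD in non-pregnant samples, and the group means differed by -0.007 SD (permutation test, two-sided, p = 0.984). The second component held 9.73%, with a difference of 0.36 SD (permutation p = 0.294).

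**Figure D1:**
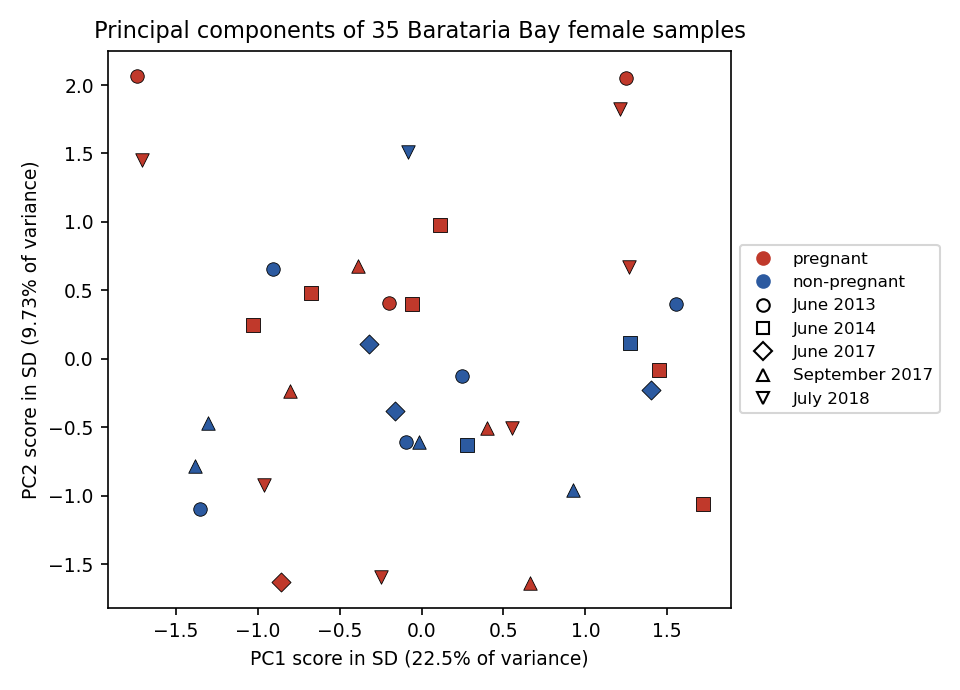
Scores of the 35 samples on the first (x axis) and second (y axis) principal component, in SD, with color for pregnancy status and marker shape for collection. Pregnant samples span -1.74 to 1.72 and non-pregnant samples -1.38 to 1.55 on the first component, and neither group lies apart from the other.

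No locus differed between pregnant and non-pregnant females at an adjusted p of at most 0.05 (limma on log2(FPKM + 1), Benjamini-Hochberg adjustment over all 11634 loci). The percentage called was 0, and the smallest adjusted p was 0.32. At an unadjusted p under 0.05 there were 656 loci (5.64%), 359 of them higher (3.09%) and 297 lower (2.55%) in pregnant samples. The median log2 difference over all loci was 0.004, and 51.2% of the loci were higher in pregnant females. The median standard error of a difference was 0.15, and for 11239 of the 11634 loci the 95% interval of the log2 difference lay between -1 and 1. In the paragraphs that follow no gene passed the test, and each difference is given as a value with its 95% interval and, where a p is printed, the adjusted p from that same limma fit. Differences are pregnant minus non-pregnant on the log2(FPKM + 1) scale, which understates the change of low genes, and levels are in FPKM.

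ETS2 had the smallest p of the genes with a name. ETS2 is a transcription factor that, in cattle, switches on the interferon tau gene in the trophoblast. It lies on scaffold NW_017844625.1 of the Tur_tru v1 assembly from 5580779 to 5598787. ETS2 was at 5.04 to 15.5 FPKM (median 10.2) in pregnant and 5.48 to 33.9 FPKM (median 16.2) in non-pregnant samples. The ranges overlapped, but none of the 20 pregnant samples was above the non-pregnant median. The log2 difference was -0.69 (95% interval -1.05 to -0.34, adjusted p = 0.55), and it was negative in all 5 collections, from -1.59 in June 2017 to -0.06 in September 2017. In limma fits under other settings the log2 difference of ETS2 ran from -0.88 to -0.53 and its adjusted p from 0.0903 to 0.9998. In BAR males the median of ETS2 was 11.2 FPKM.

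The IL-18 receptor came next on the lower side. IL18RAP, its signalling subunit, was at 68.4 to 165 FPKM (median 99.93) in pregnant and 90.1 to 378 FPKM (median 156) in non-pregnant females, a log2 difference of -0.51 (-0.82 to -0.20, adjusted p = 0.74). IL18R1, the subunit that binds the cytokine, had the same log2 difference, -0.51 (-0.88 to -0.14), with medians of 19.1 and 29.7 FPKM. The 2 genes are neighbours on scaffold NW_017842906.1. Only 2 of 20 pregnant samples were above the non-pregnant median for IL18RAP and 5 of 20 for IL18R1.

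Among the other genes with the smallest p on the lower side were CXCR2, the chemokine receptor that guides neutrophils, and MCM4, a subunit of the replicative DNA helicase. CXCR2 was at 17.3 to 153 FPKM (median 73.7) in pregnant and 48.1 to 255 FPKM (median 130) in non-pregnant samples, a log2 difference of -0.67 (-1.13 to -0.22, adjusted p = 0.81). MCM4 had medians of 19.6 and 25.2 FPKM and a log2 difference of -0.41 (-0.69 to -0.13). Also among the 10 with the smallest p were EHD1, of endocytic recycling, with -0.49, CHST15, a sulfotransferase that modifies chondroitin sulfate, with -0.37, PARVB, an adaptor of integrin adhesions, with -0.67, TRAM2 with -0.47 and CRISPLD2, a secreted protein, with -0.60. In the 10 genes with the smallest p on this side 0 to 6 of the 20 pregnant samples were above the non-pregnant median, and adjusted p ranged from 0.55 to 0.81. Of the 10, ETS2 and CHST15 were lower in pregnant samples in all 5 collections.

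On the higher side PQLC3, a membrane protein gene on scaffold NW_017843712.1 from 52886126 to 52898031, had the smallest p. PQLC3 was at 25.8 to 57.2 FPKM (median 40.6) in pregnant and 11.3 to 45.3 FPKM (median 29.1) in non-pregnant samples, and 18 of 20 pregnant samples were above the non-pregnant median. The log2 difference was 0.48 (0.20 to 0.75, adjusted p = 0.71). PI4K2B, a phosphatidylinositol kinase, had medians of 36.2 and 25.3 FPKM and a log2 difference of 0.42 (0.18 to 0.67). SOCS2, a feedback inhibitor of growth hormone and prolactin signalling, was at 8.17 to 44.5 FPKM (median 22.7) in pregnant and 7.84 to 22.9 FPKM (median 15.0) in non-pregnant samples, a log2 difference of 0.55 (0.22 to 0.87, adjusted p = 0.72). The upper part of the pregnant range of SOCS2 lay above every non-pregnant sample, while the lowest pregnant sample was among the lowest of all.

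The scavenger receptor OLR1, which takes up oxidized LDL, was at 136 to 601 FPKM (median 236) in pregnant and 86.9 to 267 FPKM (median 179) in non-pregnant females, a log2 difference of 0.60 (0.24 to 0.95). The succinate receptor SUCNR1 had medians of 145 and 91.8 FPKM and a log2 difference of 0.63 (0.20 to 1.06). SESN3, a stress-response regulator of growth signalling, had 0.38, RNF138, a ubiquitin ligase of DNA repair, 0.39, ZNF346, a binder of double-stranded RNA, 0.51 and ITGB1BP1, a regulator of integrin adhesion, 0.34. In the 10 genes 16 to 19 of 20 pregnant samples were above the non-pregnant median, adjusted p ranged from 0.71 to 0.81, and 7 of the 10 were higher in pregnant samples in all 5 collections. These 20 genes were chosen for their small p, so their separation is a description.

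**Figure D2:**
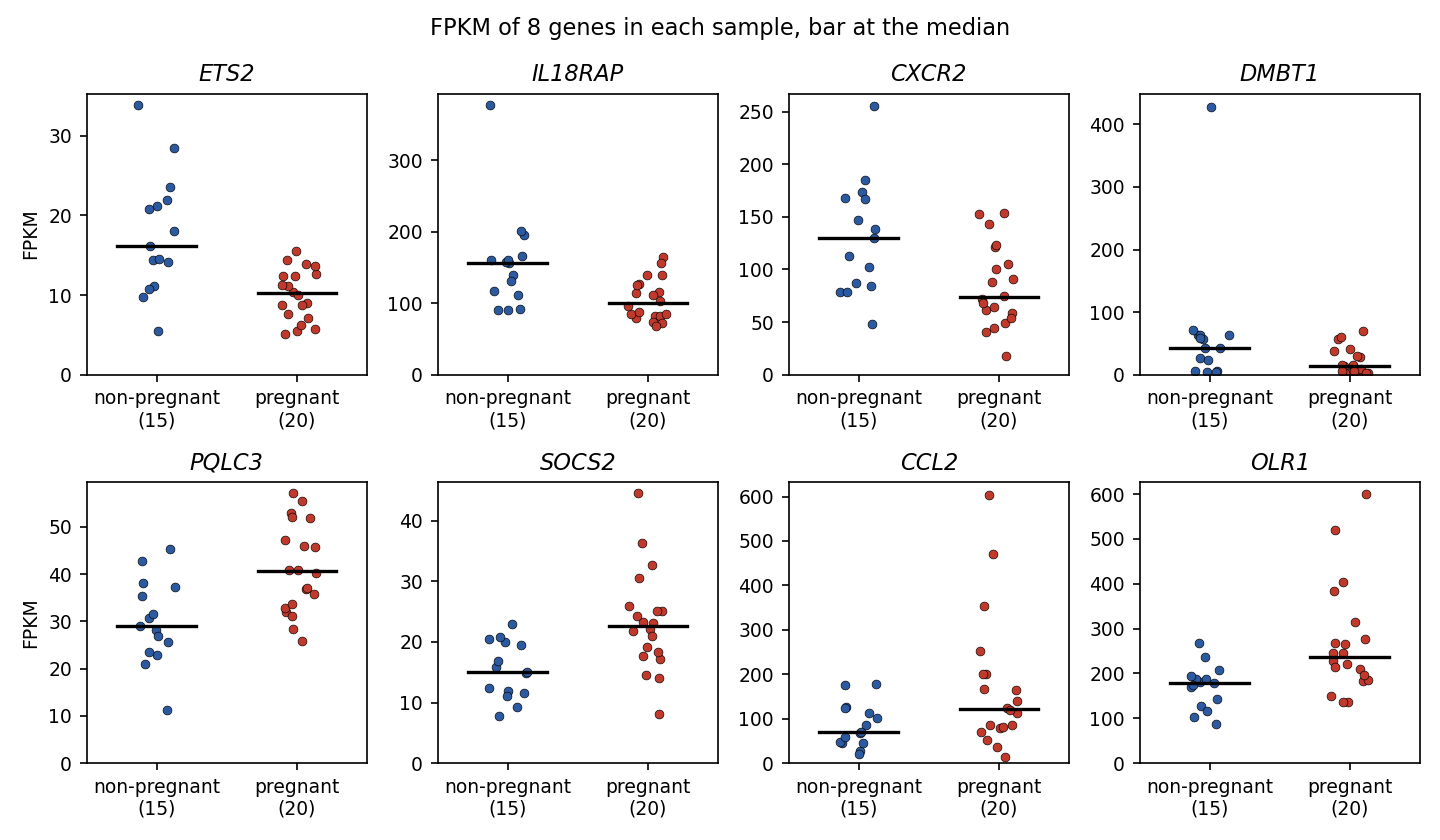
FPKM (y axis, starting at 0) of 8 genes in each of the 15 non-pregnant and 20 pregnant samples (x axis), with a bar at the group median. ETS2 has all 20 pregnant values below the non-pregnant median of 16.2, and in every panel the ranges of the groups overlap.

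The chemokine genes CCL2 and CCL15 are given next, neither of which passed the test. CCL2 is among the loci the study lists for pregnancy, chosen on these samples, so its values are a description. CCL2, which recruits monocytes, lies on scaffold NW_017842605.1 from 8721858 to 8723775. CCL2 was at 14.7 to 603 FPKM (median 122) in pregnant and 20.1 to 178 FPKM (median 69.4) in non-pregnant samples, a log2 difference of 0.76 (0.05 to 1.47, adjusted p = 0.86). The CCL2 values of the pregnant samples spread over a wider range on both sides, and 17 of 20 were above the non-pregnant median. The difference was positive in all 5 collections, from 0.11 in July 2018 to 1.46 in June 2017. CCL15 was far more abundant, at 2224 to 13527 FPKM (median 4399) in pregnant and 1177 to 5004 FPKM (median 3126) in non-pregnant samples, with a log2 difference of 0.67 (0.25 to 1.09, adjusted p = 0.81). CCL chemokine genes resemble each other closely, and how reads were shared among copies could not be checked.

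Over the whole list of inflammatory chemokines, cytokines and receptors, 17 of 37 genes could be named and tested. None passed the test, 1 was higher and 5 were lower at an unadjusted p under 0.05, and the median log2 difference was -0.23, beside 0.004 over all loci. The direction of the list varied between collections: its median was -0.46 in June 2013 and -0.55 in June 2014, while 11 of 17 genes were higher in June 2017 (median 0.22) and 17 of 17 in July 2018 (median 0.24). CXCR3, the receptor of activated T cells for interferon-induced chemokines, had 0.28 (-0.09 to 0.65) and IL15RA, which presents IL-15 to lymphocytes, -0.69 (-1.29 to -0.09). ACOD1, which makes itaconate in activated macrophages, was low in both groups, with medians of 1.78 and 1.77 FPKM.

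All gene names come from locus and symbol pairs in the study's own tables, many of which were drawn up on these samples. A list member without a name there could not be counted, and the counts are not independent evidence of a direction. Beside each list count stand all 11634 loci, of which 5956 were higher and 5678 lower in pregnant samples. Within collections these numbers differed. Higher in pregnant samples were 6112 loci in June 2013, 4264 in June 2014, 3651 in June 2017, 7071 in September 2017 and 5896 in July 2018. List counts within a collection, above and below, are to be read beside these numbers. At an unadjusted p under 0.05, 3.09% of all loci were higher and 2.55% lower.

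Interferon-stimulated genes, whose products sense or destroy viral RNA, were lower in pregnant than in non-pregnant females for 26 of 27 named loci, with none passing the test. At an unadjusted p under 0.05, 7 were lower and 0 higher, beside 2.55% and 3.09% over all loci, and the median log2 difference was -0.38. DDX60, DTX3L, both DHX58 loci, GBP4, GBP6, OAS2, RTP4, ISG20, IFIH1 and RSAD2 are among the loci the study lists for pregnancy. They were chosen for a difference on these samples, so the counts of this list are a description. OAS1, which makes the messenger that activates RNase L, had the lowest value of the list. OAS1 was at 0.162 to 31.8 FPKM (median 9.05) in pregnant and 4.91 to 94.8 FPKM (median 12.2) in non-pregnant samples, a log2 difference of -1.004 (-1.85 to -0.16, adjusted p = 0.86). The RNA sensor IFIH1 had medians of 6.12 and 7.46 FPKM and a log2 difference of -0.72 (-1.32 to -0.12). PARP14, a mono-ADP-ribosyltransferase, had medians of 9.23 and 14.4 FPKM and -0.73 (-1.27 to -0.18), and the helicase DDX60 medians of 10.5 and 15.5 FPKM and -0.55 (-0.98 to -0.13). The exception was IFI6, with 0.31 (-0.02 to 0.64) and medians of 211 and 158 FPKM.

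The highest interferon-stimulated levels were in a few non-pregnant libraries. The mean log2(FPKM + 1) over the 27 loci was 3.97 to 5.70 (median 4.65) in pregnant and 4.40 to 7.27 (median 4.94) in non-pregnant samples. The highest values were those of Y47 (7.27) and Y45 (6.58), both of June 2013, followed by Y95 of June 2014 (5.83), all non-pregnant. RSAD2, the antiviral enzyme viperin, shows it in one gene: the medians were 2.98 FPKM in pregnant and 3.60 FPKM in non-pregnant samples, while the highest values were 27.1 and 186 FPKM. Without Y47 the list median was -0.26 with 25 of 27 loci lower and 3 of them at an unadjusted p under 0.05, and without Y45 it was -0.31 with 26 lower. With any 1 library left out, 3 to 12 of the 27 loci were lower at an unadjusted p under 0.05, the most without the pregnant sample Y91 of June 2014. Within collections the median of the list was -1.18 in June 2013, -0.89 in June 2014, -0.05 in June 2017, 0.32 in September 2017 and -0.005 in July 2018. In September 2017, 24 of the 27 loci were higher in pregnant samples. Without June 2013 the list median was -0.11, with 21 of 27 loci lower and 1 at an unadjusted p under 0.05.

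**Figure D3:**
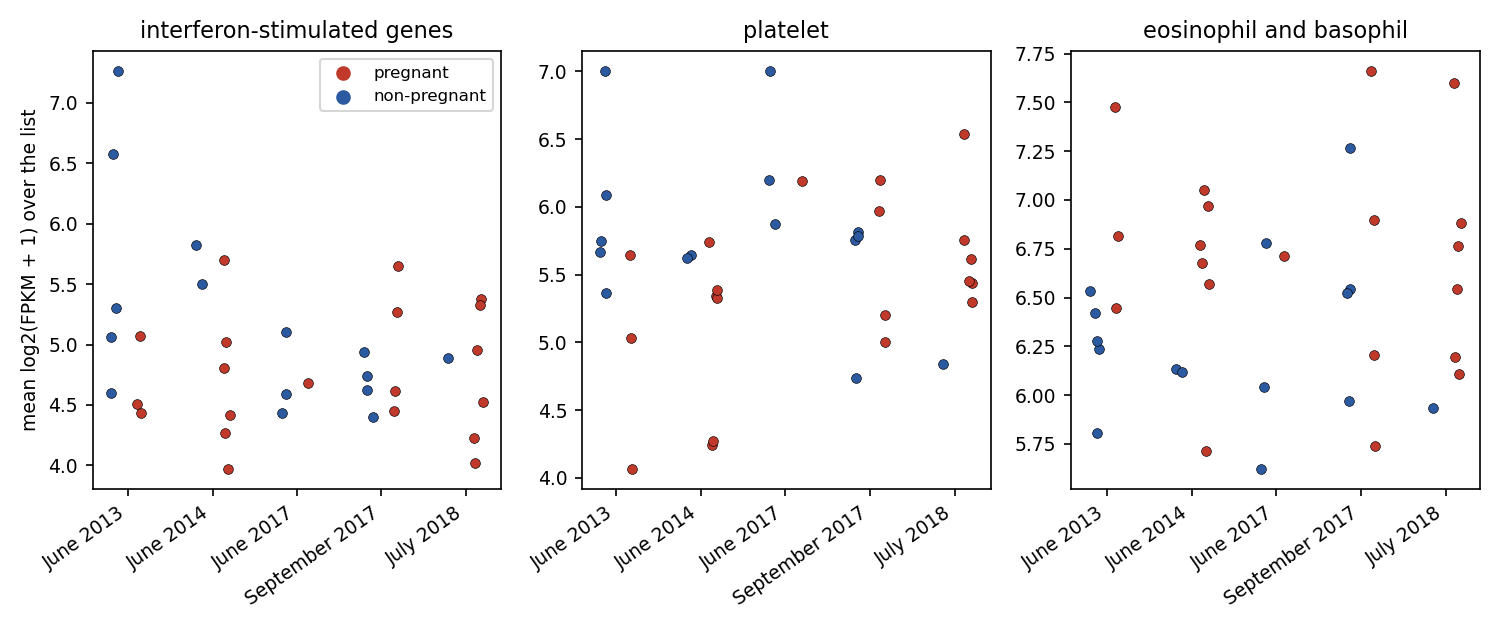
Mean log2(FPKM + 1) over 3 gene lists (y axis) in each sample by collection (x axis), colored by pregnancy status. For interferon-stimulated genes the non-pregnant samples reach 7.27 in June 2013 and the statuses overlap in every collection.

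Platelet genes had the lowest list median, -0.51. Of the 10 named loci, 9 were lower in pregnant females, 5 of them at an unadjusted p under 0.05, and none passed the test. GP5, a subunit of the von Willebrand factor receptor, was at 3.19 to 34.5 FPKM (median 10.6) in pregnant and 5.27 to 59.4 FPKM (median 17.1) in non-pregnant samples, a log2 difference of -0.62 (-1.17 to -0.08, adjusted p = 0.86). ITGA2B, the platelet fibrinogen receptor subunit, had medians of 63.8 and 105 FPKM and a log2 difference of -0.61 (-1.16 to -0.05), and TREML1, a receptor of platelet granules, had -0.57 (-1.07 to -0.08). PF4, an abundant platelet chemokine gene, had -0.04 (-0.43 to 0.34), with medians of 4860 and 4615 FPKM. The summed level of the list was 2139 to 11299 FPKM (median 5228) in pregnant and 3458 to 13179 FPKM (median 5017) in non-pregnant samples. The ranges overlapped, and the median of the sum was higher in pregnant samples, against the direction of the list median.

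Platelet differences also varied between collections. All 10 loci were lower in June 2013 (median -1.25) and in June 2014 (median -0.57). In September 2017, 6 of 10 were higher (median 0.13), beside 7071 of all 11634 loci (median 0.06). All 10 were higher in July 2018 (median 0.85), where a single non-pregnant sample stands against 6. The highest list means were those of the non-pregnant samples Y43 of June 2013 (7.01) and YR3 of June 2017 (7.00). Without Y43 the list median was -0.42 and 1 locus was left at an unadjusted p under 0.05, and without YR3 the median was -0.41, also with 1 locus. Without the pregnant sample Y41, also of June 2013, 3 loci were left. With any 1 library left out, 1 to 7 loci were lower at an unadjusted p under 0.05.

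Neutrophil genes were lower for 7 of 8 named loci (median -0.23), with 2 lower and 1 higher at an unadjusted p under 0.05. Beside CXCR2, CSF3R, the receptor of the growth factor that drives neutrophil production, was at 356 to 1574 FPKM (median 745) in pregnant and 537 to 1812 FPKM (median 918) in non-pregnant samples, a log2 difference of -0.44 (-0.78 to -0.09). ADGRG3, an adhesion receptor of granulocytes, had a positive difference, 0.33 (0.0043 to 0.65). Y43 and YR3, the libraries with the highest platelet means, also had the highest neutrophil means, 8.31 and 8.03, and the part of cell numbers in these values was not tested. Within June 2013 the median was -0.74, and without that collection it was -0.09, with 5 of 8 loci lower. Lower were 6 of 8 in June 2014 (median -0.40) and 5 of 8 in June 2017 (median -0.10). In September 2017, 4 were higher and 4 lower, and in July 2018, 6 of 8 were higher (median 0.19). Without Y43 the list median was -0.11, with 6 of 8 loci lower.

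Eosinophil and basophil genes were the only list with every named member higher in pregnant females, 6 of 6, with a median log2 difference of 0.33 and none at an unadjusted p under 0.05. PRG3, an eosinophil granule protein, was at 3.03 to 218 FPKM (median 21.9) in pregnant and 0.873 to 704 FPKM (median 8.26) in non-pregnant samples, and 18 of 20 pregnant samples were above the non-pregnant median. The log2 difference of PRG3 was 0.99 (-0.20 to 2.1804, adjusted p = 0.90), with the highest value of all in a non-pregnant sample of June 2013 (Y57). PRG3 was higher in 4 of 5 collections, with 1.89 in June 2013 and -1.05 in September 2017. IL5RA, the receptor subunit through which IL-5 acts on eosinophils, had medians of 59.3 and 45.5 FPKM and a log2 difference of 0.39 (-0.04 to 0.83), positive in all 5 collections. FCER1A, a subunit of the IgE receptor of basophils and mast cells, had medians of 867 and 733 FPKM and 0.37 (-0.07 to 0.81). The list median was positive in each collection, from 0.09 to 0.47, and 0.26 to 0.39 when any 1 library was left out. All 6 loci were higher in June 2013, 4 of 6 in June 2014 and 5 of 6 in each later collection. With body length as a covariate it was 0.07.

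B cell genes were lower for 10 of 10 named loci (median -0.21, and -0.12 without the pregnant sample YY9 of July 2018), with none at an unadjusted p under 0.05; CD37, a membrane protein of mature B cells, had medians of 494 and 573 FPKM and a log2 difference of -0.25 (-0.57 to 0.08). With body length as a covariate 3 of 10 B cell loci were lower and the median was 0.05. Of 6 named T cell loci 4 were higher (median 0.15, and 0.09 without Y43). All 6 were higher in June 2013 and June 2014. In June 2017, 5 of 6 were lower (median -0.61), beside 7979 of all 11634 loci (median -0.22). In July 2018, 6 of 6 were lower (median -0.41), beside 5738 of all loci (median 0.006). CD8B, a co-receptor subunit of cytotoxic T cells, was at 20.3 to 153 FPKM (median 52.0) in pregnant and 13.9 to 70.5 FPKM (median 47.07) in non-pregnant females, a log2 difference of 0.30 (-0.12 to 0.71). CD3G, of the T cell receptor complex, had 0.27 (-0.10 to 0.64). For CD8B 11 of 20 pregnant samples were above the non-pregnant median, while the highest pregnant value was above the non-pregnant range.

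LGALS1 encodes galectin-1, a lectin known in mice for restraining T cells during pregnancy. The gene is among the loci the study lists for pregnancy, chosen on these samples, so its values are a description. LGALS1 was at 83.04 to 498 FPKM (median 214) in pregnant and 75.2 to 314 FPKM (median 140) in non-pregnant samples, a log2 difference of 0.52 (0.09 to 0.94, adjusted p = 0.84). The difference was positive in all 5 collections, from 0.21 to 1.04. The other 3 named genes of the regulatory T cell list had lower values in pregnant samples, ENTPD1, which breaks down extracellular ATP, with -0.15 (-0.39 to 0.08) and the cytokine gene TGFB1 with -0.04 (-0.35 to 0.27) among them. Of 8 cytotoxic and natural killer loci 5 were lower (median -0.20, and -0.12 without Y43). The median of these 8 loci was -0.44 in June 2013, while 5 of 8 were higher in September 2017 and 8 of 8 in July 2018 (median 0.38). SH2D1B, an adaptor of natural killer receptors, had -0.35 (-0.65 to -0.04), and CD244, a receptor that uses such adaptors, had 0.34 (0.0017 to 0.67).

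**Figure D4:**
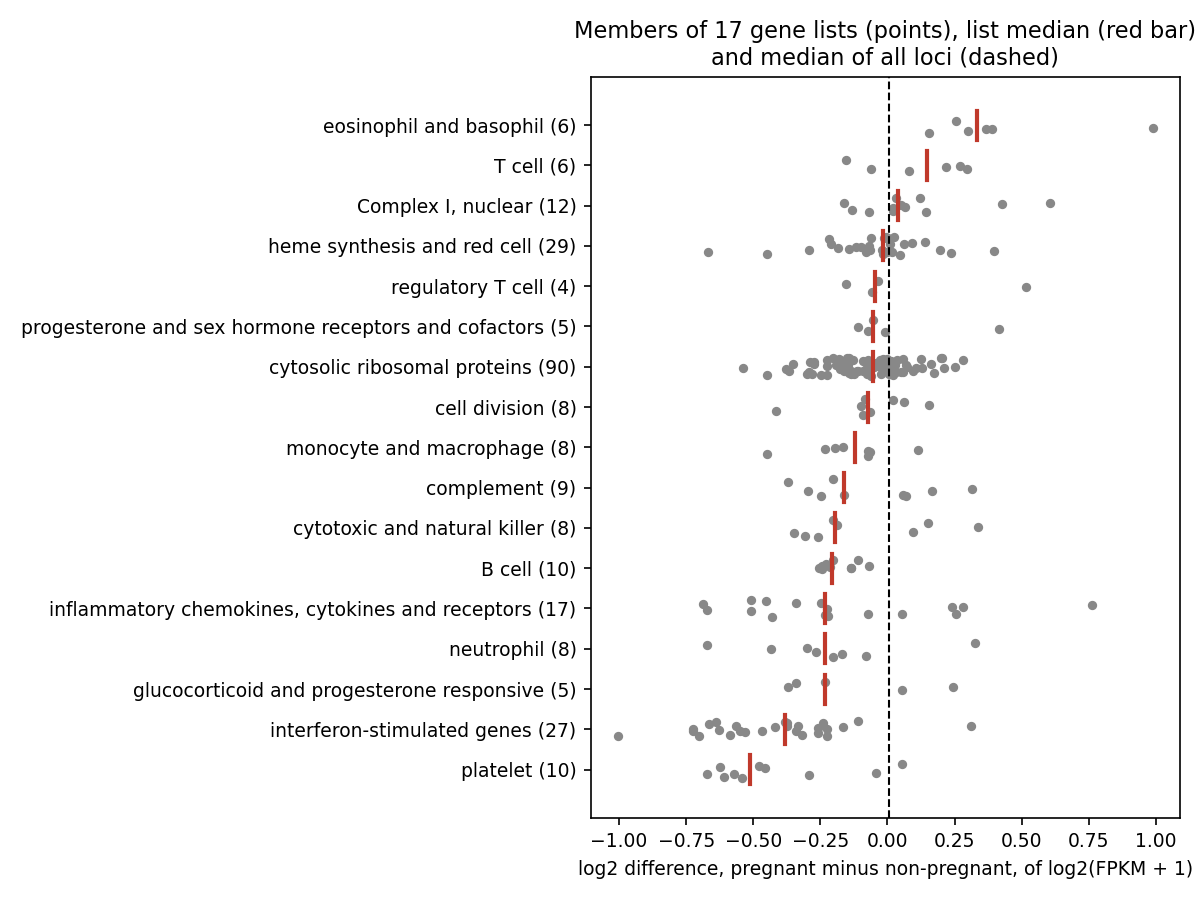
Log2 difference of each named member of 17 gene lists (x axis, pregnant minus non-pregnant; lists on the y axis with the number of loci), with a red bar at the list median and a dashed line at the median of all loci, 0.004. The platelet (-0.51) and interferon-stimulated (-0.38) medians are the lowest and the eosinophil and basophil median (0.33) is the highest.

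Monocyte and macrophage genes were lower for 7 of 8 loci (median -0.12, and -0.06 without the pregnant sample YA1 of June 2014), with CSF1R, the receptor for the monocyte growth factor, at -0.23 (-0.64 to 0.18). All 8 loci were lower in June 2013 (median -0.48), but 6 of 8 were higher in June 2017 (median 0.18) and 7 of 8 in September 2017 (median 0.11). DMBT1, a secreted scavenger protein that binds bacteria, had the largest difference among the genes the study lists for pregnancy. It was at 0.915 to 70.4 FPKM (median 13.8) in pregnant and 3.53 to 428 FPKM (median 42.3) in non-pregnant samples, a log2 difference of -1.36 (-2.47 to -0.25, adjusted p = 0.84), and it was negative in all 5 collections, from -2.52 in June 2013 to -0.45 in July 2018. Complement genes were split, with 4 of 9 higher and 5 lower (median -0.16, and -0.006 without Y47), and within collections the median ran from -0.50 in June 2013 to 0.32 in June 2017. C5AR1, the receptor of the anaphylatoxin C5a, had -0.29 (-0.61 to 0.02) with medians of 474 and 606 FPKM, and C1QC, a chain of the first complement component, -0.37 (-1.23 to 0.49).

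Genes of heme synthesis and red cells did not share a direction: 12 of 29 loci were higher and 17 lower (median -0.02). GATA1, the transcription factor of red cells, platelets and eosinophils, was at 80.0 to 245 FPKM (median 127) in pregnant and 57.4 to 179 FPKM (median 97.3) in non-pregnant samples, a log2 difference of 0.40 (0.08 to 0.71, adjusted p = 0.84) that was positive in all 5 collections. FN3K, a kinase that removes sugars from red cell proteins, had -0.67 (-1.28 to -0.06) with medians of 2.80 and 5.44 FPKM at the locus with the smaller p. The difference at that locus was positive in 2 of 5 collections, with 0.02 in June 2013 and -1.81 in September 2017. The other FN3K locus had -0.45. Within collections the list median ranged from -0.45 in September 2017 to 0.82 in June 2017, and without 1 library it ran from -0.11 with 5 of 29 higher (Y43) to 0.04 with 16 of 29 higher (YA1).

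Few receptors for the hormones of pregnancy could be followed. Of 29 genes of progesterone and sex hormone receptors and their cofactors, 5 could be named and tested. PAQR7, a membrane progesterone receptor, was at 10.0 to 26.0 FPKM (median 14.4) in pregnant and 4.51 to 19.1 FPKM (median 12.0) in non-pregnant samples, a log2 difference of 0.42 (0.10 to 0.73, adjusted p = 0.81). It was positive in all 5 collections, from 0.14 to 0.64, and 16 of 20 pregnant samples were above the non-pregnant median. The co-chaperone FKBP4, with -0.07 (-0.34 to 0.19), the steroid receptor coactivators NCOA2, with -0.05 (-0.34 to 0.23), and NCOA3, with -0.01 (-0.30 to 0.28), and PAQR9, with -0.11 (-0.54 to 0.32), had intervals that span 0. Of 5 genes known to respond to glucocorticoids and progesterone, DUSP1, a phosphatase that ends MAP kinase signalling, had -0.37 (-0.68 to -0.06) with medians of 248 and 301 FPKM, and the list median was -0.23, or -0.10 without Y43. All 5 genes of this list were lower in June 2014 and higher in July 2018 (median 0.23).

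Among nuclear genes of mitochondrial Complex I, NDUFS5 and NDUFC2 had the largest differences. Both are among the loci the study lists for pregnancy, chosen on these samples together with those of SAR. Their rank is therefore a description. NDUFS5 had medians of 81.2 and 60.9 FPKM and a log2 difference of 0.61 (0.15 to 1.07, adjusted p = 0.81), and NDUFC2 medians of 189 and 134 FPKM and 0.43 (0.12 to 0.74, adjusted p = 0.81). Of the 12 named loci 9 were higher, with a list median of 0.04, and without the non-pregnant sample YV7 of September 2017 the count was 6 and the median 0.003. In June 2013, 9 of 12 were higher (median 0.28), and in July 2018, 6 were higher and 6 lower. Lower were 8 of 12 in June 2014 (median -0.13), 9 in June 2017 (median -0.21) and 8 in September 2017 (median -0.05). With collection as a factor the list median was -0.002. For NDUFS5 the difference ran from 1.30 in June 2013 to -0.03 in July 2018. NDUFC2 was higher in 3 of 5 collections, with 1.06 in June 2013 and -0.08 in September 2017. Cytosolic ribosomal protein loci had a median of -0.05, with 29 of 90 higher and 61 lower. This count was unstable: it was 13 higher without Y43 (median -0.11) and 41 higher without the pregnant sample YA3 of September 2017 (median -0.02). In June 2013, 68 of the 90 ribosomal loci were higher (median 0.26), and in September 2017 the number was 2 (median -0.44). RPL23A had -0.45 (-0.78 to -0.11) and RPL10L -0.54 (-0.98 to -0.10), and near-identical copies of these genes make single values uncertain. Of 8 cell division loci 3 were higher and 5 lower (median -0.07, and -0.02 without YY9).

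The study lists 37 loci for pregnancy, chosen on these samples together with those of SAR, and 35 of them have a descriptive symbol. All 37 passed the filter, none passed the limma test, and the sign was positive for 11 and negative for 26, with a median log2 difference of -0.53. At an unadjusted p under 0.05, 8 were higher and 15 lower. CDA, cytidine deaminase, had 0.46 (0.06 to 0.86) with medians of 40.2 and 30.003 FPKM and was higher in all 5 collections. GAS1, a growth arrest gene, had 0.36 (-0.27 to 1.001) with medians of 19.1 and 14.8 FPKM and was higher in 2 of 5 collections. Among the 37 loci are ETS2, PARVB, CRISPLD2, PQLC3, CCL2, CXCR3, IL15RA, ACOD1, IFIH1, DDX60, RSAD2 and TREML1, described above. CD8B, LGALS1, DMBT1, C1QC, FN3K, NDUFS5, NDUFC2 and RPL10L are also among them. These loci had been selected for a difference, so their values and counts are a description and no support.

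Differences between collections were tested in June 2013 and September 2017, which hold at least 3 samples of each status. No locus passed the test of the difference of differences (limma interaction contrast, 11634 loci tested, percentage called 0), and 577 (4.96%) had an unadjusted p under 0.05. PARP14 had a log2 difference of -1.97 in June 2013, with 3.23 to 6.24 FPKM in pregnant and 6.98 to 65.8 FPKM in non-pregnant samples, and of 0.09 in September 2017, with 8.65 to 22.7 and 10.3 to 19.1 FPKM. Of the 90 named genes 21 had an unadjusted interaction p under 0.05, a larger share than over all loci, and the smallest adjusted p among them was 0.97. Many of these 90 were named for a small p in the same samples, and no single gene is shown to differ between the collections.

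**Figure D5:**
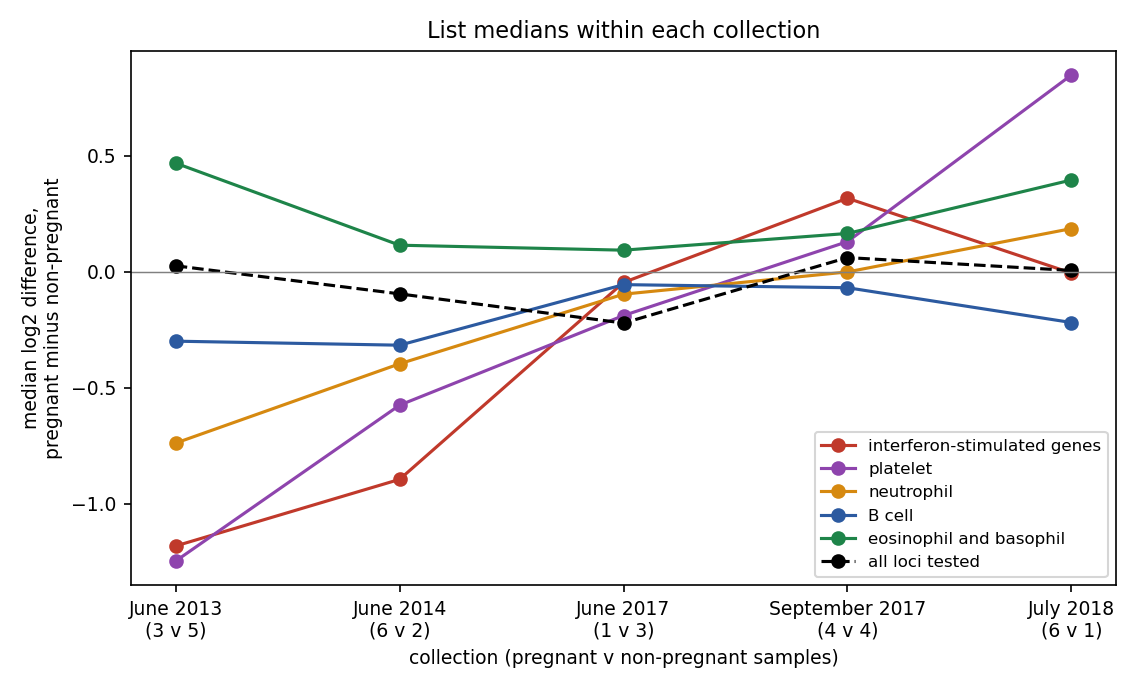
Median log2 difference over the members of 5 lists and over all loci (y axis) within each collection (x axis, with the number of pregnant v non-pregnant samples). Platelet medians run from -1.25 in June 2013 to 0.85 in July 2018, while the eosinophil and basophil median is above 0 in each collection; June 2017 and July 2018 rest on 1 sample of 1 status.

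YV7, the animal sampled in both states, offers a comparison within 1 dolphin, in which status and collection cannot be told apart. Genes were chosen from the 33 samples that exclude this animal. Of the 10 higher genes with the smallest p, 9 were higher in YV7 when pregnant, and of the 10 lower genes 8 were lower, beside 50% and 49.8% over all loci. SOCS2 was at 15.0 FPKM in the non-pregnant and 25.0 FPKM in the pregnant sample and CXCR2, which is not among those genes, at 113 and 48.8 FPKM. ETS2, at 5.48 and 5.49 FPKM, and CCL2, also outside that choice, at 178 and 166 FPKM, had changes close to 0 or of the opposite sign. The median change was 0.21 for the 10 higher genes and -0.17 for the 10 lower genes on the log2 scale.

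In SAR 1 pregnant female stands beside 5 non-pregnant females, samples that took no part in the choice of genes. Of the 10 genes higher in pregnant BAR females 1 was higher in the SAR pregnant female, and of the 10 lower genes 10 were lower. Over all loci 22.6% were higher and 77.4% lower in that library, and the counts are to be read beside these shares.

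Loci without a name had the smallest p of all. A locus on scaffold NW_017843453.1 from 454459 to 487806 was at 3.20 to 13.8 FPKM (median 7.95) in pregnant and 2.94 to 6.1303 FPKM (median 4.39) in non-pregnant samples. Its log2 difference was 0.67 (0.38 to 0.95, adjusted p = 0.32) and was positive in 4 of 5 collections. The locus passed the limma test without YN9, the only pregnant sample of June 2017 (adjusted p = 0.036), and with the SAR females added (adjusted p = 0.014). The fit with SAR females added 1 pregnant and 5 non-pregnant samples and had no term for site. Status and site are partly mixed in it. On the lower side, the second of 2 entries at scaffold NW_017844293.1 from 17138805 to 17139345 had medians of 3.36 and 11.3 FPKM and a log2 difference of -1.62 (-2.34 to -0.89, adjusted p = 0.32). Only 1 of 20 pregnant samples was above its non-pregnant median, and the difference was negative in all 5 collections, from -3.18 in June 2013 to -0.37 in July 2018. Another locus on that scaffold, from 17143668 to 17144382, had medians of 1.75 and 7.36 FPKM and a log2 difference of -1.39 (-2.04 to -0.73, adjusted p = 0.33). A more abundant locus on scaffold NW_017843946.1 from 18171 to 20561 was at 33.8 to 376 FPKM (median 135) in pregnant and 112 to 968 FPKM (median 234) in non-pregnant samples, a log2 difference of -1.30 (-1.92 to -0.69, adjusted p = 0.33). It was negative in all 5 collections, from -2.37 in June 2013 to -0.40 in July 2018, and the ranges of the groups overlapped. A locus on scaffold NW_017842794.1 from 81629513 to 81632027 was at 0 in 1 pregnant library, Y65 of June 2013, and reached 35.9 FPKM in others (median 17.2), against 5.21 to 12.3 FPKM (median 7.94) in non-pregnant samples. Its adjusted p was 0.81 with all samples and 0.011 without Y65. These unnamed loci were chosen after their values were seen.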

How the data were processed

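Whole blood was collected into PAXgene tubes, and libraries were made with a directional kit and sequenced as paired ends. The authors groomed reads with Trimmomatic 0.33, mapped them to Tur_tru v1 with TopHat2 2.1.1 and Bowtie2, masked hemoglobin sequences, and deposited FPKM from Cufflinks 2.2.1 in a table of 24094 loci given by position; positions are printed counting from 1. Symbols for 3144 loci came from locus and symbol pairs in the study's supplementary tables, and 2808 of 3099 symbols were found in the RefSeq gene table. Pregnancy status came from the study's sample table, since the GEO labels do not hold it.

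Loci with a mean FPKM of at least 1 and values above 0 in at least 50% of the 35 samples were kept. Groups were compared on log2(FPKM + 1) with limma (version 3.58.1, R 4.3.3), by a two-sided moderated test with an intensity trend and no covariates, with Benjamini-Hochberg adjustment and a threshold of 0.05; Cuffdiff, which the study used, needs reads and was not run. limma was tested on simulated data. Component scores were compared with a permutation test of 100000 resamples. Relative depth was fitted over 595 pairs of libraries, and 99.7% of the pairs lay within 5% of the fitted ratio. Gene lists were described by counts and medians, with no list test.

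Named genes were those passing the test, else the 10 with a descriptive symbol and the smallest p in each direction; genes the study lists for pregnancy; the 3 members of each list with the smallest p; and hormone receptors. A gene that met this rule is not reported here. OAS1, IFI6, ITGA2B and PF4 were named after their values were seen. Members, lists and tests were chosen with earlier results of these data known. Alternatives were pseudocount, filter, scaling, covariates, animal as block, samples left out, and robust fits. P-values measure the spread between samples, 3 animals having given 2 each.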

Additional observations from a re-analysis of the deposited data

How the results depend on the processing

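With 20 and 15 samples and a median standard error of 0.15, small differences could not be resolved, and low FPKM rest on few fragments. Of 17 other settings, 16 gave 0 loci, and the count was 1 with the SAR females added, a fit without a term for site. Leaving out 1 library gave 0 to 1 loci, with 1 locus without Y65 of June 2013 and without YN9 of June 2017. Loci at an unadjusted p under 0.05 numbered 267 to 1055 of those tested in the other settings: 267 (2.30%) without June 2013, 459 (3.95%) with collection as a factor, 1055 (9.07%) after quantile normalization and 1015 (8.72%) after median-ratio scaling. With the animal as a replicate block (within-animal correlation 0.36) 0 loci passed and 729 had an unadjusted p under 0.05; the block changed no call. The interaction count was 2 without the filter, which tests 20766 loci, and 0 in the other settings.

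The first component difference of -0.007 SD turned to 0.387 with median-ratio scaling, 0.131 with the earliest sample of each animal, 0.013 without June 2014 and 0.114 without June 2017, and ran from -0.120 to 0.103 with 1 library left out. Named genes that turned to a positive sign without June 2013 were P2RY13 (0.0763), C1QC (0.174), GBP6 (0.299), ACOD1 (0.0182), TGFB1 (0.0874), SLC25A37 (0.0438), FKBP4 (0.00261) and NCOA2 (0.0183). With the SAR females added TGFB1 was at 0.0105, NDUFV2 at 0.000125, NCOA3 at 0.0375 and NCOA2 at 0.00553. With the earliest samples TGFB1 was at 0.0110 and NCOA3 at 0.0353. TGFB1 was at 0.0350 without June 2014, FKBP4 at 0.0153 and NCOA3 at 0.0623 without June 2017, and CLEC17A at 0.0129 with body length. PAQR9 was at 0.00606 with collection, 0.150 with body length, 0.204 with both, 0.0326 with collection and median-ratio scaling, and 0.00284 without September 2017. With 1 library left out TGFB1 ran from -0.108 to 0.0198, NCOA3 from -0.0737 to 0.0483 and NCOA2 from -0.0990 to 0.00480. The causes were not tested. The list counts under each setting and the fit without YV7 were added after seeing the data.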
